A study of Mus musculus with 18 samples.

Results

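The 10 genes examined here are commonly read as markers of dendritic cells: *Flt3*, *Xcr1*, *Clec9a*, *Batf3*, *Zbtb46*, *Cd209a*, *Itgax*, *Siglech*, *Ccr7* and *Irf8*. They were taken by name, and all 10 were among the 20878 genes of the expression matrix. RNA came from 18 tumors grown from cells of the mouse osteosarcoma line K7M2, which comes from the Balb/c strain, in 4 groups. The Balb/c hosts, which are syngeneic and immunocompetent, bore cells with a control shRNA (ATRX-CT, 4 tumors) or an shRNA against *Atrx* (ATRX-KD, 4 tumors). NSG hosts (NOD.Cg-Prkdc scid Il2rg tm1Wjl/SzJ) bore the same ATRX-CT (5 tumors) or ATRX-KD (5 tumors) cells. NSG mice have no mature lymphocytes or NK cells, and their myeloid cells are those of another strain. Hosts are described as females of 6 to 8 weeks, every tumor came from a different mouse, and tumors are named here by mouse number. All 4 groups therefore carried an shRNA construct. Cages were assigned whole to a group of cells and the labels give no cage, so cage and knock-down cannot be told apart, nor can host strain and immune status.

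Dendritic cells take up antigen in tissues, carry it to lymph nodes and present it to T cells. They arise from marrow progenitors under the cytokine FLT3 ligand, and separate into conventional type 1 cells (cDC1), which take up dead cells and prime CD8 T cells, conventional type 2 cells (cDC2), which prime CD4 T cells, and plasmacytoid cells, which make type I interferon. Cells of either conventional type that have taken up antigen mature, gain the chemokine receptor CCR7 and leave the tissue. *Xcr1*, *Clec9a*, *Batf3* and *Irf8* are tied to cDC1, *Cd209a* to cDC2 and monocyte-derived cells, *Siglech* to plasmacytoid cells, *Zbtb46* and *Flt3* to the conventional lineage and its progenitors, and *Itgax* to most dendritic cells. Several are not restricted to dendritic cells: *Itgax* and *Irf8* are also transcribed in macrophages, *Siglech* in microglia and some macrophages, *Zbtb46* in endothelium, and *Ccr7* in T cells.

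In mm10 the genes lie at chr5:147330741-147400489 (*Flt3*, minus strand, 24 exons), chr9:123852315-123862029 (*Xcr1*, minus, 2 exons), chr6:129408862-129424764 (*Clec9a*, plus, 7 exons in the longest transcript), chr1:191098414-191108943 (*Batf3*, plus, 3 exons), chr2:181390886-181459426 (*Zbtb46*, minus, 3 exons in the longest transcript), chr8:3743395-3748984 (*Cd209a*, minus, 7 exons), chr7:128129568-128150657 (*Itgax*, plus, 30 exons), chr7:55768184-55778925 (*Siglech*, plus, 6 exons in the longest transcript), chr11:99144199-99155077 (*Ccr7*, minus, 3 exons in the longest transcript) and chr8:120736358-120756694 (*Irf8*, plus, 9 exons in the longest transcript). No exon of theirs overlapped an exon of another annotated gene. Reads of 75 nt could be shared with a related gene over 5.01% of the windows of *Itgax* (with *Itgad*) and 3.23% of those of *Clec9a* (with *Clec1b*). For *Xcr1*, 0.297% of the windows were shared with a mixed set of genes, among them *Adat1*, *Glo1* and *Mvp*. The other 7 genes had no shared window.

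To set promoters side by side, the 250 bases upstream of the RefSeq start are shown for *Irf8*, *Batf3*, *Clec9a* and *Itgax*. Of these 4 genes, *Irf8* and *Batf3* were called between hosts, whereas *Clec9a* and *Itgax* were not. This split follows the test threshold only: in ATRX-KD tumors the host difference of *Itgax* (0.82) exceeded that of *Batf3* (0.72). The sequences are RefSeq sequences of GRCm38.p6, which shares its coordinates with mm10. They run 5′ to 3′ on the coding strand, all 4 on the plus strand. Capitals mark a TATA motif (TATAAA) or an AP-1 motif (TGANTCA), read on either strand. *Irf8* is at chr8:120736108-120736357, *Batf3* at chr1:191098164-191098413, *Clec9a* at chr6:129408612-129408861 and *Itgax* at chr7:128129300-128129549.
Irf8: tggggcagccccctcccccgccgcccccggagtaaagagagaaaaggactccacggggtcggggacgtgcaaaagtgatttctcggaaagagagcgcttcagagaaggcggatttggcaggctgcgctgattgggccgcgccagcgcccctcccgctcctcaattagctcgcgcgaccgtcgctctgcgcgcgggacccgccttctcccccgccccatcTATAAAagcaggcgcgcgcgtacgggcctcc
Batf3: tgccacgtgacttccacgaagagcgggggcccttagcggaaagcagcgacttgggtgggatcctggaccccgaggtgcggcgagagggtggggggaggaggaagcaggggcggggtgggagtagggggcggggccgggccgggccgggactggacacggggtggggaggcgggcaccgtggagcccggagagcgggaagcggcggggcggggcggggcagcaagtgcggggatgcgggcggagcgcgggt
Clec9a: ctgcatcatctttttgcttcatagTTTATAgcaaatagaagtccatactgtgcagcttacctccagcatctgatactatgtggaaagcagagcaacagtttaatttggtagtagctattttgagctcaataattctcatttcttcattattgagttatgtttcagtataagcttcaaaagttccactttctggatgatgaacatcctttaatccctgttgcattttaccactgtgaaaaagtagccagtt
Itgax: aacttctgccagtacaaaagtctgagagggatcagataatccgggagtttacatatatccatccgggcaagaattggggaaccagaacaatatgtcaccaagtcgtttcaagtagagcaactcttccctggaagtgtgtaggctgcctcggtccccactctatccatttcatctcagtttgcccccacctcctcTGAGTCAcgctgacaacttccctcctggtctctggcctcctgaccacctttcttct

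The windows differed in base composition. *Batf3* (76.0% G and C, 27 CpG dinucleotides) and *Irf8* (67.2%, 29 CpG) were CpG-rich, with fewer CpG in 91.4% and 93.2% of 32851 mouse promoters, whereas *Clec9a* (35.6%) had 0 CpG and *Itgax* (50.0%) had 5. Of the other members with a window, none called between hosts, *Flt3* (59.2%) had 13 CpG. *Xcr1*, *Siglech*, *Cd209a* and *Zbtb46* had 5, 2, 1 and 0. A relation of base composition to the calls was not tested. The *Irf8* TATA motif lay 31 to 26 bases before the start and the *Itgax* AP-1 motif 56 to 50 bases before its RefSeq start, which lies 18 bases upstream of the *Itgax* start given above. Of the 9 members with a RefSeq window (*Ccr7* had none), 4 held TATAAA on either strand (12.4% of all promoters) and 2 held TGANTCA (6.75%), the other being *Zbtb46*, whose window precedes an exon that is internal in another annotated transcript. Outside *Irf8*, the TATAAA matches were on the reverse strand (TTTATA) and farther from the start. They lay at −226 to −221 in *Clec9a*, −184 to −179 in *Cd209a* and −160 to −155 in *Xcr1*. *Irf8* had a second RefSeq window, at chr8:120738389-120738638 (54% G and C, 8 CpG), which held none of the motifs named here. Each member was counted once, whereas the percentages are of single windows. The PU.1 motif GAGGAAGT (2.44% of all promoters) and the interferon-stimulated response element (2.98%) were in 0 of the windows of these 9 members. An AP-1 motif directly beside an IRF half-site (0.1% of all promoters) was in that of *Zbtb46*, overlapping the AP-1 match. These matches describe the letters of the windows only.

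Libraries held an estimated 15250000 to 26100000 fragments, with 16108 to 18212 genes above 0 and spike-ins at 1.44% to 3.04%. Most members were low: a tumor yielded an estimated 4 to 43 fragments of *Cd209a*, 12 to 48 of *Batf3*, 22 to 94 of *Siglech* and 26 to 133 of *Clec9a*, against 1172 to 2866 of *Irf8*. The host labels were checked by T cell markers, whose summed level was 29.8 to 54.9 FPKM in Balb/c tumors and 1.42 to 7.16 FPKM in NSG tumors. *Atrx* overlapped between ATRX-KD and ATRX-CT tumors in both hosts, with a difference of −0.34 (SE 0.36, adjusted p = 0.999) in Balb/c and −0.74 (SE 0.22, adjusted p = 0.0610) in NSG mice on the log2 (FPKM + 1) scale in limma. The NSG value ranged in adjusted p from 0.000976 to 0.129 over the alternatives that keep all tumors and passed with library weights, with the length trend removed (0.00978) and without ATRX-CT tumor 2 (0.0400) or ATRX-KD tumor 27 (0.0268). ATRX-KD tumors 56 (21.5 FPKM), 60 (17.3 FPKM) and 27 (16.4 FPKM) lay near the ATRX-CT means of 17.6 FPKM in both hosts, and their libraries had positive slopes along transcript length (0.18, 0.10 and 0.10). The paper reports that a western blot of the K7M2 cell line showed the loss of ATRX protein. Whole-tumor RNA also holds RNA of host cells, and their part in the *Atrx* values was not tested. *Eif2s3y*, a Y-linked gene, was listed at 0 in the 8 Balb/c tumors and at 5.64 to 14.4 FPKM in the 10 NSG tumors although both hosts are described as female, so sex and host cannot be told apart. Keratinocyte genes stood out in Balb/c ATRX-CT tumor 45, with a summed level of 88.4 FPKM, and Balb/c ATRX-KD tumor 60, with 14.7 FPKM, against 1.49 to 2.37 FPKM in the other 6 Balb/c tumors, and in NSG ATRX-KD tumors 26, 27 and 29, with 13.8, 10.5 and 17.0 FPKM, against 1.27 to 5.93 FPKM in the other 7 NSG tumors. Osteoblast genes were mixed: *Col1a1* was at 56.6 to 499 FPKM and *Runx2* at 3.54 to 11.1 FPKM, while *Sp7* stayed under 0.2 FPKM and *Ibsp* under 0.03 FPKM.

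The members spanned a wide range of levels. FPKM divides the fragments of a gene by its transcript length and by library size, so levels of different genes can be set side by side. Mean levels over the 18 tumors ran from *Irf8* (31.4 ± 8.58 FPKM, SD) through *Itgax* (6.12 ± 3.87), *Ccr7* (4.48 ± 0.923), *Zbtb46* (3.06 ± 0.846), *Batf3* (2.35 ± 0.905), *Siglech* (1.04 ± 0.398), *Clec9a* (1.01 ± 0.498), *Flt3* (0.900 ± 0.327) and *Xcr1* (0.896 ± 0.319) to *Cd209a* (0.765 ± 0.475). *Irf8* exceeded *Itgax*, and *Ccr7* exceeded *Zbtb46*, in 18 of 18 tumors. *Zbtb46* exceeded *Batf3* in 14 and *Batf3* exceeded *Siglech* in 16. The order of *Itgax* and *Ccr7* (11 of 18 tumors), and of the 5 lowest genes among themselves (8 to 13 of 18 tumors for neighbours), was not separated beyond the spread. *Irf8* exceeded 84.1% of all genes in the matrix, and the 5 lowest members exceeded between 40.2% and 41.9%.

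**Figure D1:**
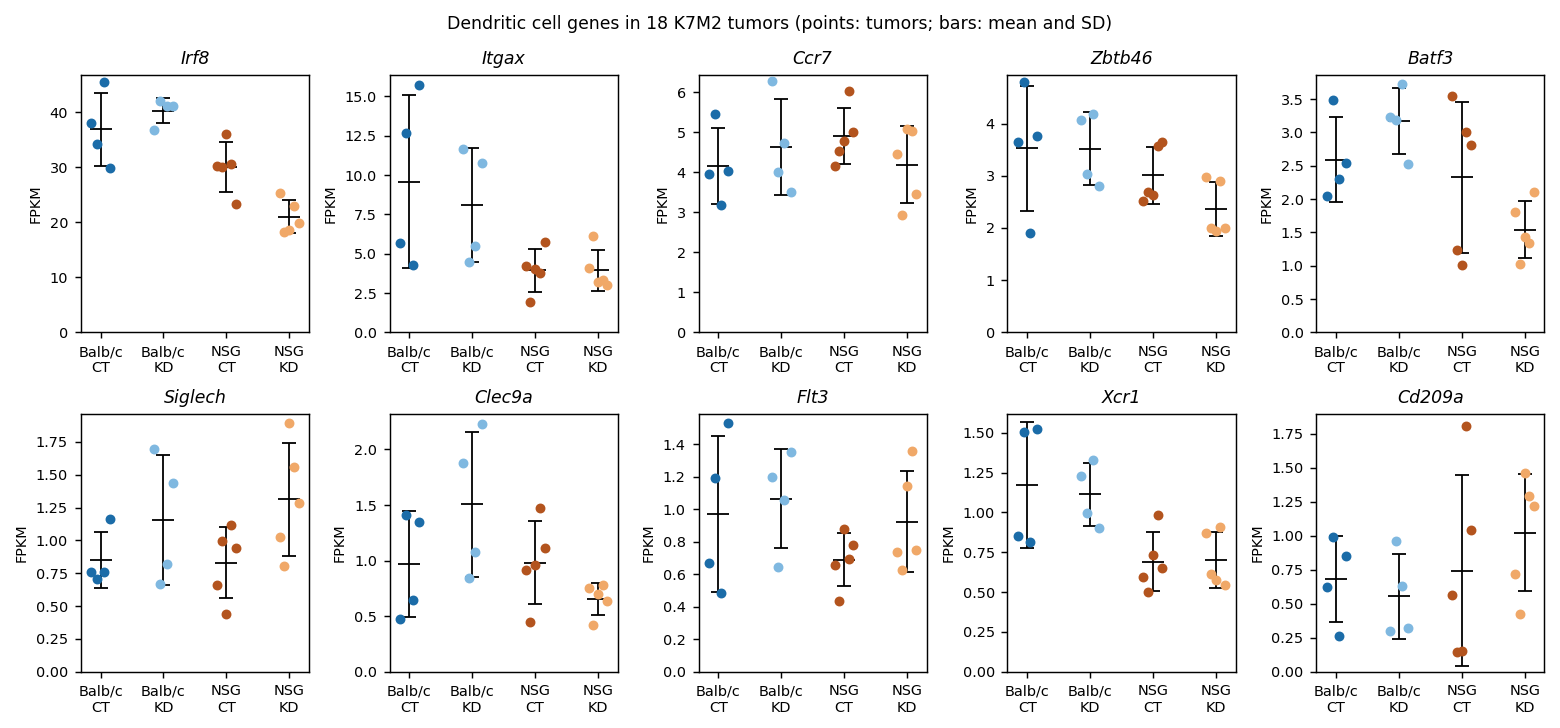
Level of each of the 10 genes in FPKM (y axis, from 0) in the 4 groups of host and shRNA (x axis); points are tumors, bars the group mean and SD. *Irf8*, *Batf3* and *Clec9a* have no overlap between hosts among ATRX-KD tumors and lie higher in Balb/c, and the 4 Balb/c tumors highest in *Itgax* stand between 10.8 and 15.7 FPKM.

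Between hosts, 2 members differed, among tumors of ATRX-KD cells. There, *Irf8* and *Batf3* were higher in Balb/c than in NSG mice, and the remaining 8 did not pass the test. Among ATRX-CT tumors no member passed. The knock-down went with a lower *Irf8* in NSG mice, 1 of 10 members where 6.78% of all genes were called. This call was lost in 7 of the 10 fits that each left out 1 tumor. In Balb/c mice no member was called, and no member passed the test that its knock-down effect differed between hosts. These comparisons share tumors with one another (each group enters a host and a knock-down comparison), so they are not independent of each other. In bulk tumors, fewer cells of a type and less RNA per cell cannot be told apart.

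In limma, with Benjamini-Hochberg adjustment over all genes tested and a threshold of 0.05, 2 of 10 members were called between hosts among ATRX-KD tumors, where 3.64% of 14669 genes were called (2.80% higher in Balb/c), and 0 of 10 among ATRX-CT tumors, where 3.18% of 14828 genes were called. The knock-down called 1 of 10 members in NSG mice (6.78% of 14654 genes, 3.05% lower with the knock-down) and 0 of 10 in Balb/c mice (0.00680% of 14701 genes, that is 1 gene). At an unadjusted p under 0.05, the members counted 6 (16.4% of all genes) and 2 (19.3%) between hosts in ATRX-KD and ATRX-CT tumors, and 2 (26.3%) and 0 (4.14%) for the knock-down in NSG and Balb/c mice. In limma, the test of the difference between hosts in the knock-down effect called 0 of 14803 genes, with 1527 genes (10.3%) and 2 members at an unadjusted p under 0.05. The groups did not overlap for 3 members between hosts in ATRX-KD tumors (8.13% of all genes) and for 0 members in ATRX-CT tumors (7.57%) or with the knock-down in NSG (7.50%) and Balb/c mice (3.18%). Median log2 differences over the members were 0.37 between hosts in ATRX-KD tumors, 0.16 in ATRX-CT tumors, −0.09 for the knock-down in NSG mice and 0.10 in Balb/c mice, where the medians of all genes tested were −0.02, 0.0084, −0.0014 and −0.0032. All 10 members passed the filter on low values, an average of 0.1 FPKM or more, in each comparison.

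**Figure D2:**
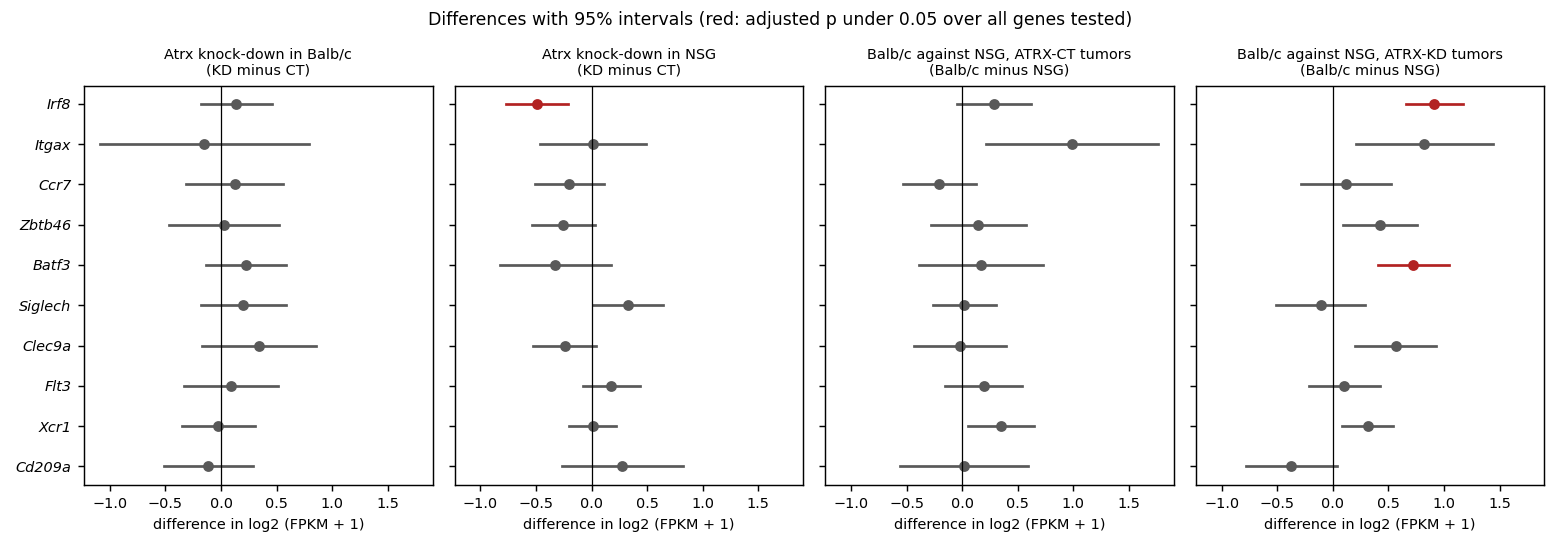
Differences in log2 (FPKM + 1) (x axis) of the 10 genes (y axis) in 4 comparisons, with 95% intervals; the left panels show ATRX-KD minus ATRX-CT, the right panels Balb/c minus NSG. Red marks adjusted p under 0.05 over all genes tested: *Irf8* in NSG mice (−0.49), and *Irf8* (0.91) and *Batf3* (0.72) between hosts in ATRX-KD tumors.

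Among the lineage factors, *Irf8* encodes a transcription factor needed for cDC1 and for monocyte and plasmacytoid development. In Balb/c mice it was at 38.1, 34.3, 45.5 and 29.9 FPKM in ATRX-CT tumors 41, 43, 44 and 45, and at 36.9, 42.0, 41.1 and 41.1 FPKM in ATRX-KD tumors 56, 58, 59 and 60. In NSG mice it was at 30.3, 30.1, 36.1, 30.5 and 23.3 FPKM in ATRX-CT tumors 1 to 5, and at 25.3, 18.3, 18.7, 23.0 and 19.9 FPKM in ATRX-KD tumors 26 to 30. The lowest Balb/c ATRX-KD tumor stood above the highest NSG ATRX-KD tumor, whereas ATRX-CT tumors of the hosts overlapped. Between hosts, the log2 difference was 0.91 in ATRX-KD tumors (SE 0.11, 95% interval 0.66 to 1.17, adjusted p = 0.00115) and 0.29 in ATRX-CT tumors (SE 0.15, adjusted p = 0.314).

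The knock-down difference of *Irf8* was −0.49 in NSG mice (SE 0.13, 95% interval −0.77 to −0.22, adjusted p = 0.0427), with the groups overlapping only through ATRX-CT tumor 5. In Balb/c mice it was 0.14 (SE 0.14, 95% interval −0.18 to 0.45, adjusted p = 0.999). The difference between these effects was 0.63 (SE 0.19, unadjusted p = 0.00377 in limma, adjusted p = 0.291). The NSG call was lost with no filter on low values (adjusted p = 0.0571). It was also lost without ATRX-CT tumor 1 (0.0873), 2 (0.0648) or 4 (0.0954), or ATRX-KD tumor 27 (0.0718), 28 (0.111), 29 (0.0704) or 30 (0.117), as adjusted p, while the difference stayed between −0.58 and −0.42.

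*Batf3* encodes the AP-1 family factor that works with IRF8 to sustain cDC1. In Balb/c mice it was at 2.04, 3.49, 2.30 and 2.54 FPKM with ATRX-CT cells and at 3.23, 3.19, 3.73 and 2.53 FPKM with ATRX-KD cells. In NSG mice it was at 3.54, 1.24, 1.01, 3.01 and 2.81 FPKM in ATRX-CT tumors and at 1.81, 1.02, 1.43, 1.33 and 2.11 FPKM in ATRX-KD tumors. NSG ATRX-CT tumors thus held 3 tumors near the Balb/c level and 2 lower ones, and the NSG ATRX-KD tumors all lay under the Balb/c ATRX-KD tumors. The host difference was 0.72 in ATRX-KD tumors (SE 0.14, 95% interval 0.40 to 1.04, adjusted p = 0.0201) and 0.17 in ATRX-CT tumors (SE 0.25, adjusted p = 0.707). The call among ATRX-KD tumors was lost in the fit of all 4 groups (adjusted p = 0.0658) and without Balb/c ATRX-KD tumor 58 (0.0556) or 59 (0.0514), or NSG ATRX-KD tumor 28 (0.0573) or 29 (0.0651). The knock-down differences were −0.33 in NSG mice (SE 0.23, adjusted p = 0.387) and 0.22 in Balb/c mice (SE 0.16, adjusted p = 0.999).

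*Zbtb46* encodes a zinc finger repressor that sets conventional dendritic cells apart from other myeloid cells. It was at 3.64, 4.79, 1.91 and 3.76 FPKM in Balb/c ATRX-CT tumors, at 4.06, 3.03, 4.18 and 2.80 FPKM in Balb/c ATRX-KD tumors, at 2.52, 2.68, 2.63, 3.56 and 3.64 FPKM in NSG ATRX-CT tumors and at 2.98, 2.00, 1.95, 2.89 and 2.00 FPKM in NSG ATRX-KD tumors. All groups overlapped pairwise. The host difference in ATRX-KD tumors was 0.43 (SE 0.15, unadjusted p = 0.0170 in limma, adjusted p = 0.179), the largest value of this gene in any comparison.

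Of the cDC1 receptors, *Xcr1* encodes the receptor for the chemokine XCL1. It was at 0.850, 1.504, 0.814 and 1.52 FPKM in Balb/c ATRX-CT tumors, at 1.23, 0.999, 1.33 and 0.904 FPKM in Balb/c ATRX-KD tumors, at 0.592, 0.499, 0.732, 0.983 and 0.652 FPKM in NSG ATRX-CT tumors and at 0.872, 0.613, 0.573, 0.910 and 0.544 FPKM in NSG ATRX-KD tumors. Its host means were 1.14 ± 0.290 FPKM (SD, n = 8) in Balb/c and 0.697 ± 0.169 FPKM (SD, n = 10) in NSG tumors. The host differences, 0.35 in ATRX-CT (SE 0.13, 95% interval 0.05 to 0.65, adjusted p = 0.198) and 0.31 in ATRX-KD tumors (SE 0.10, 95% interval 0.09 to 0.54, adjusted p = 0.150), had intervals above 0 but did not pass the adjustment over all genes. Its knock-down differences were −0.03 in Balb/c and 0.0098 in NSG mice, both with an adjusted p above 0.96 in limma, and their signs turned under other scalings.

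*Clec9a* encodes the receptor with which cDC1 recognise the actin of dead cells. It was at 0.473, 1.41, 0.649 and 1.34 FPKM in Balb/c ATRX-CT tumors and at 1.87, 0.842, 1.079 and 2.23 FPKM in Balb/c ATRX-KD tumors. It was at 0.915, 0.446, 0.963, 1.47 and 1.11 FPKM in NSG ATRX-CT tumors and at 0.752, 0.420, 0.695, 0.784 and 0.633 FPKM in NSG ATRX-KD tumors. Every Balb/c ATRX-KD tumor stood above every NSG ATRX-KD tumor, a separation that 5.08% of all genes showed in the same direction and that 3 members (*Irf8*, *Batf3* and *Clec9a*) had. The host difference in ATRX-KD tumors was 0.56 (SE 0.16, 95% interval 0.20 to 0.93, adjusted p = 0.104), and it passed without Balb/c ATRX-KD tumor 58 (adjusted p = 0.0417). In ATRX-CT tumors the value was −0.02 (SE 0.19). The difference between hosts in the knock-down effect was 0.58 (SE 0.26, unadjusted p = 0.0388 in limma, adjusted p = 0.451), from 0.34 in Balb/c and −0.24 in NSG mice.

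*Flt3* encodes the receptor for FLT3 ligand. It ranged from 0.483 to 1.53 FPKM in Balb/c ATRX-CT, 0.647 to 1.35 FPKM in Balb/c ATRX-KD, 0.436 to 0.878 FPKM in NSG ATRX-CT and 0.629 to 1.36 FPKM in NSG ATRX-KD tumors. These ranges overlap throughout, and its 4 differences lay between 0.09 and 0.19 with adjusted p of 0.353 or more in limma. The cytokine itself, *Flt3l*, was at 3.47 to 7.12 FPKM over the 18 tumors and was not called in any comparison.

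*Cd209a*, a C-type lectin of cDC2 and monocyte-derived cells, was uneven among tumors. NSG ATRX-CT tumors were at 0.565, 0.148, 0.150, 1.81 and 1.04 FPKM, a wider span than in the other 3 groups, and NSG ATRX-KD tumors ranged from 0.425 to 1.46 FPKM. Balb/c tumors ranged from 0.263 to 0.993 FPKM with ATRX-CT and from 0.301 to 0.960 FPKM with ATRX-KD cells. Its 95% intervals were −0.51 to 0.28 for the knock-down in Balb/c, −0.27 to 0.82 in NSG mice, −0.56 to 0.59 between hosts in ATRX-CT and −0.78 to 0.03 in ATRX-KD tumors.

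*Siglech*, a lectin of plasmacytoid cells, ranged from 0.707 to 1.16 FPKM in Balb/c ATRX-CT and 0.667 to 1.70 FPKM in Balb/c ATRX-KD tumors, and from 0.442 to 1.12 FPKM in NSG ATRX-CT and 0.806 to 1.89 FPKM in NSG ATRX-KD tumors. In contrast to *Irf8*, its knock-down difference in NSG mice was above 0, at 0.33 (SE 0.14, 95% interval 0.02 to 0.65, unadjusted p = 0.0412 in limma, adjusted p = 0.170). Between hosts its differences were 0.02 and −0.11 in ATRX-CT and ATRX-KD tumors.

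*Ccr7*, the receptor that leads mature cells to lymph nodes, varied least in proportion to its mean. Its group means were 4.16 ± 0.948 (SD, n = 4) and 4.63 ± 1.20 FPKM (SD, n = 4) in Balb/c ATRX-CT and ATRX-KD tumors and 4.90 ± 0.699 (SD, n = 5) and 4.19 ± 0.959 FPKM (SD, n = 5) in NSG ATRX-CT and ATRX-KD tumors. Its 4 differences lay between −0.20 and 0.12, with adjusted p of 0.399 or more in limma. Of the T cell genes, *Cd3e* was at 0 to 0.112 FPKM in NSG and 2.54 to 8.53 FPKM in Balb/c tumors, while *Cd4* was at 1.00 to 5.62 and 3.20 to 6.15 FPKM. The part of T cells in the *Ccr7* values was not tested.

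*Itgax* encodes the integrin CD11c. In Balb/c mice it was at 5.68, 12.7, 4.31 and 15.7 FPKM in ATRX-CT tumors and at 11.7, 4.47, 5.51 and 10.8 FPKM in ATRX-KD tumors. In NSG mice it was at 4.23, 1.95, 4.05, 3.75 and 5.77 FPKM in ATRX-CT and at 4.08, 6.10, 3.21, 3.31 and 2.99 FPKM in ATRX-KD tumors. Balb/c tumors 43, 45, 56 and 60 were high, and the other 4 Balb/c tumors lay within or near the NSG range. The host differences were 0.99 in ATRX-CT tumors (SE 0.35, adjusted p = 0.168) and 0.82 in ATRX-KD tumors (SE 0.28, adjusted p = 0.158). The first passed without Balb/c ATRX-CT tumor 44 (adjusted p = 0.0490).

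The high *Itgax* tumors were also the libraries in which long transcripts read higher. The slope of each library along transcript length, in log2 units per doubling of length, was 0.10 to 0.18 in Balb/c tumors 43, 45, 56 and 60, and −0.10 to 0.0040 in Balb/c tumors 41, 44, 58 and 59. Over the 8 Balb/c tumors, *Itgax* followed the slope with Pearson's r = 0.947 (exact permutation, two-sided, p = 0.00469, adjusted p = 0.0938 over 20 relations) and Spearman's rho = 0.857 (exact permutation p = 0.0107, adjusted p = 0.214), and r was 0.948 without the 2 tumors farthest from the median. In the 10 NSG tumors, r was 0.456 (permutation p = 0.186, adjusted p = 0.337; rho = 0.333, p = 0.352). *Irf8* in Balb/c tumors had r = −0.752 (exact permutation p = 0.0277, adjusted p = 0.182; rho = −0.738, p = 0.0458) and *Flt3* r = 0.772 (exact permutation p = 0.0377, adjusted p = 0.182; rho = 0.738, p = 0.0458). None of the 20 relations passed the adjustment. With the trend along length removed from each library, the host differences of *Itgax* were 0.88 and 0.78 in ATRX-CT and ATRX-KD tumors, and that of *Irf8* in ATRX-KD tumors was 0.91.

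**Figure D3:**
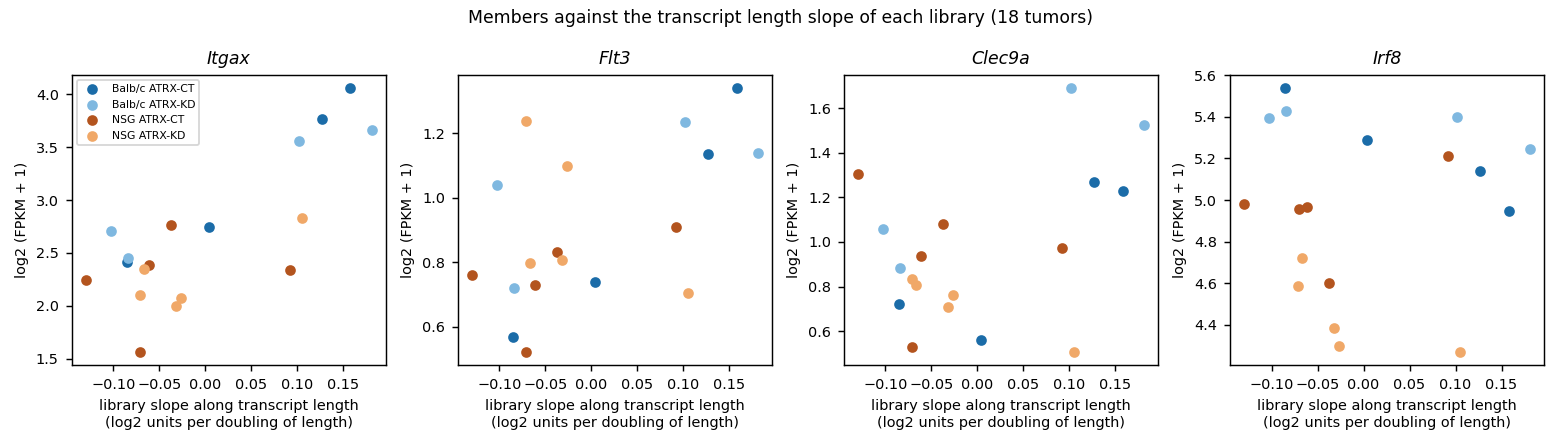
Level of *Itgax*, *Flt3*, *Clec9a* and *Irf8* in log2 (FPKM + 1) (y axes) against the slope of each library along transcript length (x axis, log2 units per doubling of length); points are the 18 tumors, colored by group. The 4 Balb/c tumors with slopes of 0.10 to 0.18 are the 4 highest in *Itgax*, whereas r is 0.456 over the NSG tumors.

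Wider programs of dendritic cells were read from 6 lists of genes, none of which holds a member (*Id2*, *Relb*, *Irf4*, *Klf4*, *Tcf4* and *Spib* are each in 2 of them). The knock-down in Balb/c mice called 0 genes in every list. In the cDC1 list (11 genes), 0 were called in each comparison, and its mean log2 levels were 3.06, 3.16, 3.17 and 3.06 for Balb/c ATRX-CT, Balb/c ATRX-KD, NSG ATRX-CT and NSG ATRX-KD tumors. *Id2*, a repressor needed for cDC1, and *Naaa*, a lysosomal amidase, had the highest levels; in ATRX-CT tumors their host differences were −0.39 (adjusted p = 0.268 in limma) and −0.56 (adjusted p = 0.0772), and in ATRX-KD tumors 0.19 (adjusted p = 0.650) and −0.05 (adjusted p = 0.920). In the plasmacytoid list (14 genes, 13 tested), 0 were called in each comparison. *Bst2* and *Irf7*, which interferon also induces in other cells, had host differences of −0.84 (SE 0.27) and −0.62 (SE 0.32) in ATRX-CT tumors and −0.51 (SE 0.30) and −0.27 (SE 0.32) in ATRX-KD tumors.

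In the cDC2 list (11 genes), 2 were higher in Balb/c than in NSG ATRX-KD tumors. *Clec10a*, a lectin shared with macrophages, was at 51.3 to 82.5 against 18.6 to 42.6 FPKM, a log2 difference of 1.25 (SE 0.26, adjusted p = 0.0246 in limma). *Cd7*, also a T and NK cell gene, differed by 0.89 (adjusted p = 0.0133) there and by 1.19 (adjusted p = 0.00254) in ATRX-CT tumors, where it was the 1 called gene of the list. The knock-down called 0 of 11 in either host.

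The mature, migratory list (18 genes) differed between hosts in part. In ATRX-KD tumors, 4 of 18 were higher in Balb/c than in NSG mice. *Pdcd1lg2*, which encodes the PD-1 ligand PD-L2, was at 1.98 to 8.88 against 0.526 to 1.18 FPKM (difference 1.61, SE 0.30, adjusted p = 0.0128 in limma). *Cd274*, which encodes PD-L1, was at 17.5 to 28.6 against 10.2 to 15.7 FPKM (difference 0.76, SE 0.17, adjusted p = 0.0366). The apoptosis inhibitor *Birc3* (0.65, adjusted p = 0.0463) and the interleukin-12 subunit *Il12b* (0.55, adjusted p = 0.0158) were the others. In ATRX-CT tumors 0 of 18 were called between hosts.

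With the knock-down in NSG mice, *Cd86*, a costimulatory ligand (−0.85, SE 0.20, adjusted p = 0.0348 in limma), and *Cd274* (−0.64, SE 0.15, adjusted p = 0.0328) were lower and *Cacnb3*, a calcium channel subunit, was higher (0.50, SE 0.09, adjusted p = 0.0148), while the median of the list was −0.30. In Balb/c mice 0 of 18 were called and the median was 0.04. *Cd86* and *Cd274* are also transcribed in macrophages and tumor cells.

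Of 12 ligands that act on dendritic cells or mark their products (9 to 11 tested), 2 were higher in Balb/c than in NSG tumors, for either kind of graft. *Xcl1*, the ligand of XCR1 made by NK and CD8 T cells, was at 0.718 to 9.57 FPKM in Balb/c and at 0 to 0.157 FPKM in NSG tumors (differences 2.63, adjusted p = 0.000108, and 1.89, adjusted p = 0.0272, in ATRX-CT and ATRX-KD tumors in limma). *Cxcl9*, an interferon-induced chemokine, was at 7.38 to 47.2 FPKM in Balb/c and 0.763 to 3.69 FPKM in NSG tumors (differences 1.92, adjusted p = 8.95e-05, and 2.66, adjusted p = 0.00497). The values for *Xcr1* beside these were 0.35 and 0.31. The CCR7 ligands *Ccl19* and *Ccl21a* were at or under 0.314 and 0.384 FPKM in all tumors. The knock-down called 0 of the ligands in either host.

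Among 12 regulators of the lineage, *Ikzf1* was called, higher in Balb/c than in NSG ATRX-KD tumors (0.69, SE 0.15, adjusted p = 0.0266 in limma). The test of the difference between hosts in the knock-down effect called 0 genes in each of the 6 lists.

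**Figure D4:**
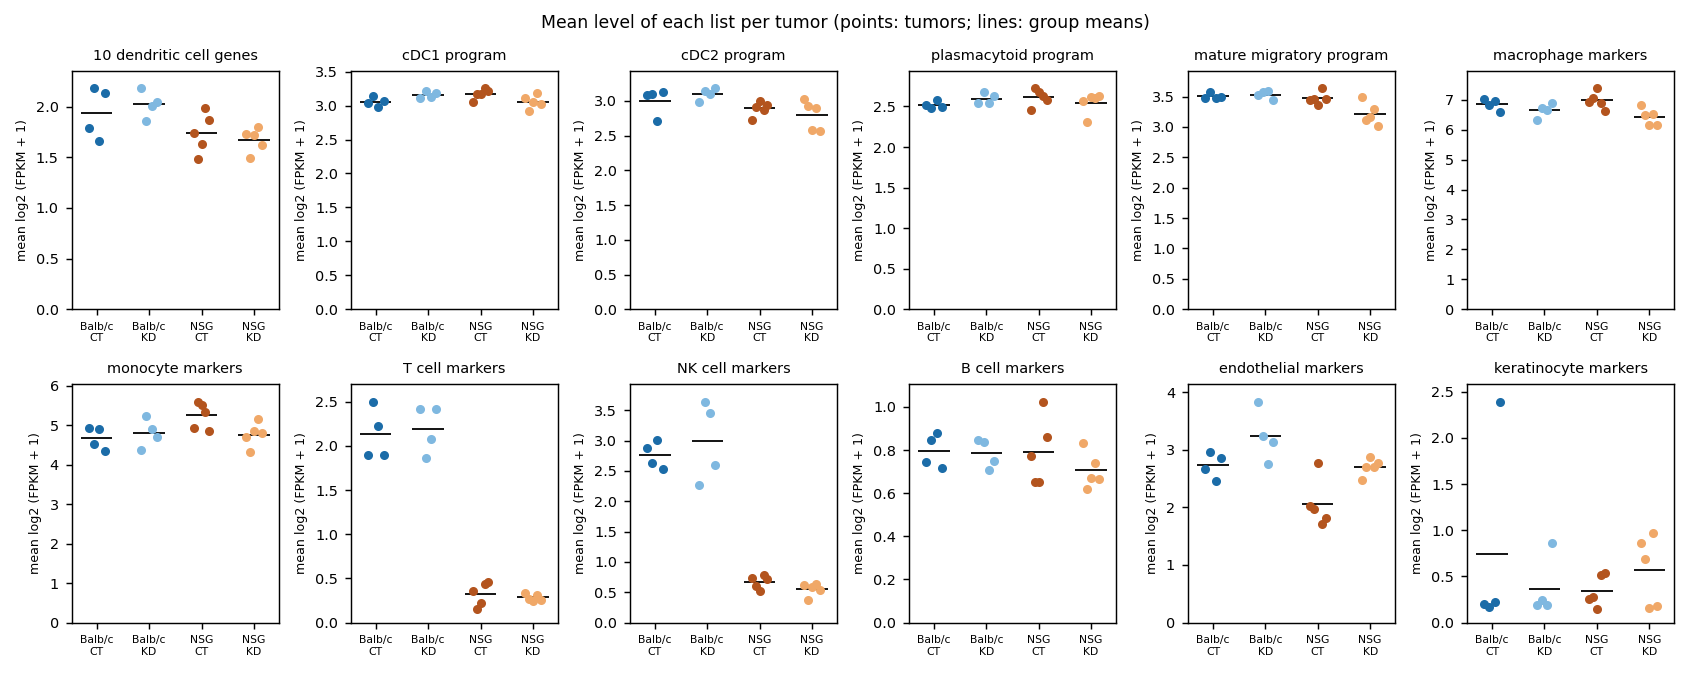
Mean log2 (FPKM + 1) of each list per tumor (y axes, from 0) in the 4 groups (x axes); points are tumors, lines group means. T and NK cell lists separate the hosts, the mature migratory mean is 3.53 in Balb/c and 3.22 in NSG ATRX-KD tumors, and the macrophage mean is 6.98 in NSG ATRX-CT and 6.43 in NSG ATRX-KD tumors.

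Markers of other cells moved in the same comparisons. In NSG mice, where *Irf8* was lower with the knock-down, 3 of 12 macrophage markers were also lower (*Lyz2* −0.97, *C1qb* −0.74 and *C1qc* −0.62), the list's median was −0.62, and its summed level was 2022 to 3586 FPKM in ATRX-KD against 3167 to 4373 FPKM in ATRX-CT tumors, with no marker at 0. Of 6 monocyte markers 1 was lower (*F13a1*, −0.86). Of the 4 Y-linked genes 3 were called lower, with a median of −0.60. For all 4, every ATRX-KD tumor lay below every ATRX-CT tumor (7.50% of all genes did not overlap, in either direction). The paper lists K7M2 as female, and the summed Y-linked level was at most 0.0115 FPKM in Balb/c tumors. Whether the share of host RNA differed between the groups was not tested. In NSG mice 3 of 10 endothelial markers were higher (*Pecam1* 0.93, *Tie1* 0.82 and *Cldn5* 0.80). Of the few lymphocyte genes tested there, 1 of 3 NK cell markers was lower (*Klra8*, −0.94) with 0 of 3 T cell and 0 of 4 B cell markers called. Between hosts in ATRX-KD tumors, macrophage markers called 0 of 12 (median 0.30, summed level 2213 to 3739 FPKM in Balb/c), and monocyte markers 1 of 6, *Chil3*, lower in Balb/c (−1.28). In either host comparison 9 of 10 T cell markers were higher in Balb/c, and of 9 NK cell markers 8 were higher and 1 lower (*Klra8*, −4.17 in ATRX-CT and −3.20 in ATRX-KD tumors). NK cell genes had summed levels of 54.5 to 343 FPKM in Balb/c and 5.72 to 28.2 FPKM in NSG tumors. *Klra8* made up most of the NSG sums, at 5.03 to 25.8 FPKM, and was at 0 to 0.108 FPKM in Balb/c tumors. In NSG tumors *Klrk1* was at 0.565 to 1.82 FPKM, and *Prf1* and *Gzma* were at or under 0.0585 and 0.0707 FPKM. Whether *Klra8* reads NK cells in NSG tumors was not tested. Of 8 B cell markers 1 was called in each host comparison (*Ms4a1* and *Cd22*, higher in Balb/c). Endothelial markers called 2 of 10 in ATRX-CT and 1 of 10 in ATRX-KD tumors between hosts, the 4 Y-linked genes were lower in Balb/c in both, and keratinocyte and osteoblast markers were not called in any comparison. The part of these cells in the values of *Irf8* and *Batf3* was not tested. Without Balb/c tumors 45 and 60, which held keratinocyte genes, *Irf8* (0.90, adjusted p = 0.00569 in limma) and *Batf3* (0.80, adjusted p = 0.0241) were still called between hosts in ATRX-KD tumors, and 0 members were called by the knock-down in Balb/c mice. Without all 5 tumors over 10 FPKM of keratinocyte genes (also NSG ATRX-KD tumors 26, 27 and 29, which leaves 2 in that group), *Irf8* was called between hosts (1.01, adjusted p = 0.0439 in limma) and *Batf3* was not (0.67, adjusted p = 0.194), and the *Irf8* difference with the knock-down in NSG mice was −0.60 (adjusted p = 0.0645).

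Within hosts, pairs of members with linked roles were compared over tumors. *Xcr1* and *Clec9a*, both of cDC1, had r = 0.622 in the 10 NSG tumors (permutation p = 0.0544, adjusted p = 0.544 over 10 relations; rho = 0.661, p = 0.0423, adjusted p = 0.423) and r = 0.405 in the 8 Balb/c tumors (exact permutation p = 0.308, adjusted p = 0.769; rho = 0.452, p = 0.267). Without the 2 tumors farthest from the median, r was 0.437 and 0.389. *Batf3* and *Irf8* had r = 0.182 in NSG (permutation p = 0.603, adjusted p = 0.957; rho = 0.176, p = 0.631) and r = −0.06 in Balb/c tumors (exact permutation p = 0.887, adjusted p = 0.957; rho = −0.309, p = 0.462). *Flt3* with *Zbtb46*, *Itgax* with the macrophage list and *Siglech* with the plasmacytoid list also did not pass, with adjusted permutation p from 0.645 to 0.957.

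With the group means subtracted, the members mostly varied together over the 18 tumors, and *Irf8* apart from them. Values are given as a description, since the points share depth and the length slope of their libraries. The closest pairs were *Xcr1* with *Zbtb46* (r = 0.783), *Flt3* with *Clec9a* (0.769), *Clec9a* with *Itgax* (0.741) and *Zbtb46* with *Ccr7* (0.727). All 36 pairs without *Irf8* were above 0, from 0.0522 to 0.783, and the 9 pairs with *Irf8* were below 0, from −0.128 with *Xcr1* to −0.582 with *Itgax*. With the trend along transcript length removed, 8 of these 9 remained below 0, the exception being *Xcr1* at 0.122. Pairs without *Irf8* moved both ways. *Xcr1* fell with *Itgax* from 0.499 to 0.141 and with *Zbtb46* from 0.783 to 0.583. *Batf3* rose with *Itgax* (0.18 to 0.681), *Clec9a* (0.347 to 0.647) and *Flt3* (0.085 to 0.385), and fell with *Cd209a* (0.66 to 0.57) and *Xcr1* (0.34 to 0.27).

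**Figure D5:**
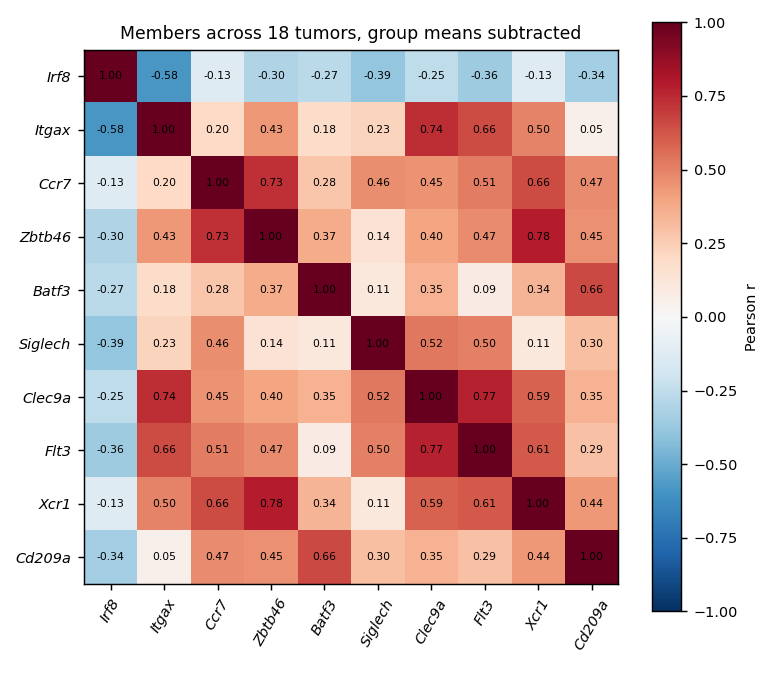
Pearson's r between the 10 genes (both axes) over 18 tumors, on log2 (FPKM + 1) with group means subtracted; red is above 0 and blue below. The row of *Irf8* is below 0 against all 9 others, and *Xcr1* with *Zbtb46* is the closest pair at 0.78.

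Genes outside the list were ranked by their likeness to each member over the same 18 tumors, among the 12948 genes that averaged 0.5 FPKM or more. Closest to *Clec9a* were *H2-Eb1* (r = 0.912) and *H2-Aa* (0.892), which encode MHC class II chains, and then *Clock* (0.887). Closest to *Irf8* were *Pld4*, an endolysosomal nuclease of myeloid and plasmacytoid cells (0.960), *Cd38* (0.891) and *Tnfaip8l2* (0.891). Closest to *Xcr1* were *Ipcef1* (0.824), *Ccl22*, a chemokine of mature dendritic cells (0.803), and *Itgae*, the CD103 integrin chain of tissue cDC1 and T cells (0.770). *Flt3* was followed by *Sept3* (0.855), *Boc* (0.815) and *Ciita*, the activator of MHC class II genes (0.814). *Cd209a* was followed by *Tnfaip8l1* (0.871), the lectin gene *Clec4b1* (0.859) and *Bloc1s4* (0.840).

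*Batf3* was followed by *Alg13* (0.879), *Glt28d2* (0.855) and *Cxcl12* (0.851), *Zbtb46* by *Cish* (0.772), *A530099J19Rik* (0.756) and *Cxcr3* (0.746), *Siglech* by *Abhd17c* (0.826), *Tsn* (0.809) and *Cxcl9* (0.780), and *Ccr7* by *Wnt5b* (0.805), *Nrep* (0.787) and *Usp12* (0.773). Closest to *Itgax* were *Srrm2*, a splicing factor (0.973), *Cramp1l* (0.965) and *Atxn1* (0.962), none of them a known dendritic cell gene. With the length trend removed, *H2-Eb1*, *H2-Ab1* and *H2-Aa* were the 3 genes closest to *Clec9a* (0.925, 0.917 and 0.912), whereas those closest to *Irf8* became *Cybb* (0.938), *Ly86* (0.926) and *Tmem86a* (0.896). The 3 closest genes also all changed for *Xcr1* (*BC029722*, *P2ry10* and *2810001G20Rik*, 0.741 to 0.755), *Batf3* and *Zbtb46*. *Itgax* was then closest to *Rai1* (0.955), *5730480H06Rik* (0.953) and again *Srrm2* (0.95). How much of the library pattern remained in *Itgax* after the removal was not tested.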

How the data were processed

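The authors aligned paired reads from ribo-depleted, stranded total RNA to mm10 with STAR 2.6.0c, removed reads of low quality and duplicates, and quantified RefSeq genes with Cufflinks 2.2.1. The deposited matrix holds log2 (FPKM + 1) for 20878 genes and 92 spike-ins. Base 2 was settled from the values. The study's differential test, DESeq, needs counts and was not used. Whole reads could not be recovered, since only 31.3% to 34.9% of low values came within 0.1 of an integer (20% by chance). Depth was estimated from these steps (median 20325000 fragments).

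Differences were tested with limma 3.58.1 (lmFit, eBayes with trend; R 4.3.3) on log2 (FPKM + 1), which understates changes of low genes, for genes averaging 0.1 FPKM or more, with Benjamini-Hochberg adjustment over all genes and no fold threshold. Replicates are tumors of different mice. Correlations used permutation tests (scipy 1.17.1). The limma step was tested on simulated data, in which 200 genes with a log2 level above 2 were changed by 2 log2 units. Of these, 92% to 98.5% were recovered per comparison, with 11 to 20 unchanged genes called. Member differences were smaller and most members had lower levels, so this does not show what could be detected for them. The 10 genes and the lists were chosen with earlier results of these data known. The TATA motif was added after the windows were read. From each list, at most 4 called genes with the largest difference were named, otherwise the 2 with the highest level; likeness was the highest correlation with group means subtracted (3 genes a member). Other genes named (*Flt3l*, *Ccl19*, *Ccl21a*, *Cd3e*, *Cd4*, *Eif2s3y* and osteoblast genes) were picked with their values in view. Alternatives were a pseudocount of 0.1, median-ratio scaling, removal of the length trend, an average of 1 FPKM or more, no filter, a fit of all groups, library weights, a fold threshold of 2 and leaving out each tumor. The fit with library weights also used the robust option of eBayes. Leaving out Balb/c tumors 45 and 60, or these and NSG tumors 26, 27 and 29, and the relations with the length slope were added after seeing the data.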

Additional observations from a re-analysis of the deposited data

Results flagged for a closer look

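In the 4 Balb/c ATRX-CT tumors, *Siglech* in tumor 45 (1.165 FPKM) stood apart from the other 3, which lay between 0.707 and 0.760 FPKM. Tumor 45 also held the highest keratinocyte gene level and a length slope of 0.158. Of 40 sets of tumors checked (10 genes in 4 groups), 1 held such a distant tumor, where 2 would by chance.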

How the results depend on the processing

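With a fold threshold of 2 the genes called were 68 (knock-down in NSG), 212 (between hosts, ATRX-CT) and 204 (between hosts, ATRX-KD), and members called fell to 0 in the first and last. The setting with library weights also used robust moderation of the variances, and the part of each was not tested. With it, the genes called were 22 of 14701 and 5414 of 14654 for the knock-down in Balb/c and NSG mice. Between hosts they were 3290 of 14828 and 1778 of 14669 in ATRX-CT and ATRX-KD tumors, and for the difference of effects 1985 of 14803. The members called were then 5 of 10 in NSG mice (*Irf8*, *Batf3*, *Clec9a*, *Siglech* and *Zbtb46*), to be read against these high totals over all genes. They were 1 of 10 between hosts in ATRX-CT tumors (*Irf8*) and 2 of 10 for the difference of effects (*Batf3* and *Irf8*). The fit of all groups called 27 genes for the knock-down in Balb/c mice, 850 between hosts in ATRX-CT tumors and 1 member in ATRX-KD tumors. A mean of at least 1 FPKM called 0, 275 and 328 genes for the knock-down in Balb/c mice and between hosts in ATRX-CT and ATRX-KD tumors. No filter called 0 genes for the knock-down in Balb/c and 0 members in NSG mice. Removal of the length trend called 0 genes in Balb/c and 1792 in NSG mice. Without Balb/c tumors 45 and 60, 2 genes were called for the knock-down in Balb/c mice and 1 for the difference of effects. Without the 5 tumors over 10 FPKM of keratinocyte genes in either host, which leaves 2 NSG ATRX-KD tumors, 2 genes were called for the knock-down in Balb/c mice, 0 members for the knock-down in NSG mice, and 142 genes and 1 member between hosts in ATRX-KD tumors. *Cd209a* and *Xcr1* with the knock-down in Balb/c mice and *Cd209a* and *Siglech* between hosts in ATRX-CT tumors then turned as they did without tumors 45 and 60, *Itgax* (−0.22) and *Xcr1* (−0.11) turned in NSG mice, and the difference of effects became 0.19 for *Itgax* and 0.21 for *Xcr1*. Median-ratio scaling turned the split of NSG knock-down calls from 547 higher and 447 lower to 419 and 538. The cause of these moves was not tested.

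For the knock-down in Balb/c mice, *Cd209a* became 0.0548 with library weights and 0.0080 without tumors 45 and 60, *Xcr1* 0.0069, 0.0480 and 0.10 (length trend removed, library weights, without 45 and 60) and *Zbtb46* −0.0482 with library weights. In NSG mice, *Itgax* became −0.0162, −0.0301 and −0.26 and *Xcr1* −0.0051, −0.0293 and −0.0363 under median-ratio scaling, length trend removal and library weights. Between hosts with library weights, *Batf3* (−0.20), *Cd209a* (−0.23) and *Siglech* (−0.0762) turned in ATRX-CT tumors and *Ccr7* (−0.0286) and *Flt3* (−0.12) in ATRX-KD tumors. Without tumors 45 and 60, *Cd209a* (−0.0359) and *Siglech* (−0.0583) turned in ATRX-CT tumors. *Xcr1* in the difference of effects became 0.0363, 0.10 and 0.0912 (length trend removed, library weights, without 45 and 60). The correlation of *Siglech* with the plasmacytoid list in Balb/c tumors became 0.622 with a pseudocount of 0.1 and 0.513 with the length trend removed, and that of *Flt3* with *Zbtb46* in NSG tumors 0.0502 with the length trend removed.

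Leaving out each tumor, genes called ranged from 0 to 2 (knock-down in Balb/c), 144 to 2080 (NSG; fewest without ATRX-KD tumor 30, most without ATRX-CT tumor 3), 276 to 975 (between hosts, ATRX-CT; without Balb/c tumors 43 and 44), 338 to 593 (ATRX-KD; fewest without NSG tumor 30) and 0 to 1 (difference of effects). The members called ranged from 0 to 0, 0 to 1, 0 to 1, 1 to 2 and 0 to 0. Differences whose sign turned ranged as follows: for the knock-down in Balb/c mice *Ccr7* −0.0098 to 0.24, *Flt3* −0.0378 to 0.22, *Itgax* −0.43 to 0.12, *Xcr1* −0.11 to 0.0521 and *Zbtb46* −0.17 to 0.16, and in NSG mice *Itgax* −0.16 to 0.14 and *Xcr1* −0.0333 to 0.0686. Between hosts these were *Cd209a* −0.11 to 0.21, *Clec9a* −0.13 to 0.11 and *Siglech* −0.0623 to 0.0758 in ATRX-CT tumors, and *Ccr7* −0.0154 to 0.21 and *Siglech* −0.23 to 0.0042 in ATRX-KD tumors. For the difference of effects they were *Flt3* −0.22 to 0.0417, *Itgax* −0.44 to 0.11 and *Xcr1* −0.12 to 0.0424. *Irf8* between hosts in ATRX-KD tumors stayed called without each tumor (0.87 to 0.98) and under the other alternatives except the fold threshold of 2. No paired analysis was possible because the compared groups share no mouse numbers. Estimated fragments of *Cd209a* and *Batf3* under 50 per tumor limit what could be seen for these genes.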
